A study of Mus musculus with 6 samples.

Results

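Secretory2 was one of 16 clusters of cultured mouse tracheal epithelial cells, and its 2870 members of 23871 cells in all (12.0%) were the cells that carried this name in the authors' table of cells. The cells had been differentiated at an air-liquid interface, a culture on a membrane in which the apical side is exposed to air. Of the 6 mice, 3 were *WT/WT* littermates and 3 were *MIS/MIS*, homozygous for a germline cysteine-to-phenylalanine missense allele of *Dnaaf5*, a cytoplasmic factor needed for the assembly of the dynein motors of motile cilia. All were C57BL/6 mice of 12 weeks, and each mouse gave one library. The *WT/WT* mice are numbered 1 to 3, and the *MIS/MIS* mice are called MT1301, MT1306 and MT1383. The cultures were started from tracheal basal cells that had been expanded, so they hold the epithelial cells that basal cells give rise to in a dish and not a whole airway.

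Basal cells are the progenitors of the tracheal epithelium and are known by the keratins *Krt5* and *Krt15* and the transcription factor *Trp63*. They give rise to secretory (club) cells, which release secretoglobins, the lipid-binding protein BPIFA1 and antimicrobial lectins such as REG3G onto the airway surface. Secretory cells can in turn become multiciliated cells, and cells between these states hold transcripts of more than one type. The secretory cells were divided by the authors into Secretory1 (4861 cells) and Secretory2. The marker genes of Secretory2 considered here are *Bpifa1*, *Scgb3a2*, *Krt15* and *Reg3g*.

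In each droplet library, transcripts were counted as unique molecular identifiers (UMIs). Over the pooled cells of all mice, Secretory2 cells had a median of 31435 UMIs and 5494 genes, and Secretory1 cells 33387 and 5459. These pooled medians do not compare depth within a mouse, and MT1383 gave 1413 Secretory1 cells but 179 Secretory2 cells. Levels are given as UMIs per 1000000 UMIs (CPM) of all Secretory2 cells of a mouse, with the SD over mice. Mouse MT1383 stood apart, with 179 Secretory2 cells and a median of 19929 UMIs. The other 5 mice had 256 to 1058 Secretory2 cells and medians of 26979 to 41595 UMIs. Of the Secretory2 cells, 19 had a barcode that also occurred in another library, and 4 of these were Secretory2 cells in both. The stated filter of the study removed cells with over 7500 genes as possible doublets. Yet 92 Secretory2 cells (3.21%) had more, beside 73 of the Secretory1 cells (1.50%) and 2.74% of all cells. No further doublet caller was run.

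The 4 markers were all at high levels in Secretory2 cells, but 3 of the 4 were lower there than in Secretory1 cells of the same mouse. Because the clusters were drawn from the same transcripts, the differences between clusters are given as a description without a test. *Bpifa1*, which encodes a secreted surfactant protein of the airway lining, was at 12820, 5139 and 10291 CPM in *WT/WT* mice 1, 2 and 3 and at 7549, 15000 and 12021 CPM in MT1301, MT1306 and MT1383. The genotypes overlapped. In Secretory1 cells it was at 8145 to 22128 CPM, and its level in Secretory2 was lower in 6 of 6 mice (log2 difference -0.51 ± 0.21, SD, n = 6). *Scgb3a2*, a secretoglobin of club cells, was at 3420, 2045 and 2195 CPM in the *WT/WT* mice and at 1869, 4476 and 4210 CPM in the *MIS/MIS* mice in the same order. It was 4.54-fold higher in Secretory1 cells (log2 difference -2.18 ± 0.21, SD, n = 6), and in no mouse did the level in Secretory2 reach the lowest level in Secretory1. *Reg3g* was at 14115, 6262 and 9866 CPM in the *WT/WT* mice and at 7204, 8185 and 10607 CPM in the *MIS/MIS* mice. It was 4.10-fold higher in Secretory1 cells (log2 difference -2.04 ± 0.35, SD, n = 6).

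*Krt15* was the marker that set Secretory2 above Secretory1. Its level was 2476, 4231 and 2938 CPM in the *WT/WT* mice and 3286, 3020 and 2507 CPM in the *MIS/MIS* mice. In Secretory1 cells of the same mice it was 1377, 2522 and 1240 CPM and 1639, 1722 and 1004 CPM. Each mouse had more *Krt15* in Secretory2, by 1.99-fold (log2 difference 0.99 ± 0.24, SD, n = 6). Over all clusters, however, Secretory2 ranked 7 of 16 for *Krt15*, and 6 of the 8 basal clusters were above it, from 3703 CPM in Basal2 to 7122 CPM in Basal5. Basal1 (1956 CPM) and Basal7 (587 CPM) were below it. For *Bpifa1* and *Scgb3a2*, Secretory2 ranked 2 of 16, after Secretory1. For *Reg3g* it ranked 3 of 16, after Secretory1 and after Multiciliated1 (25492 CPM). *Scgb1a1*, the classical club cell secretoglobin, was lower in Secretory2 than in Secretory1 in 6 of 6 mice, at 247 ± 136 and 729 CPM.

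**Figure D1:**
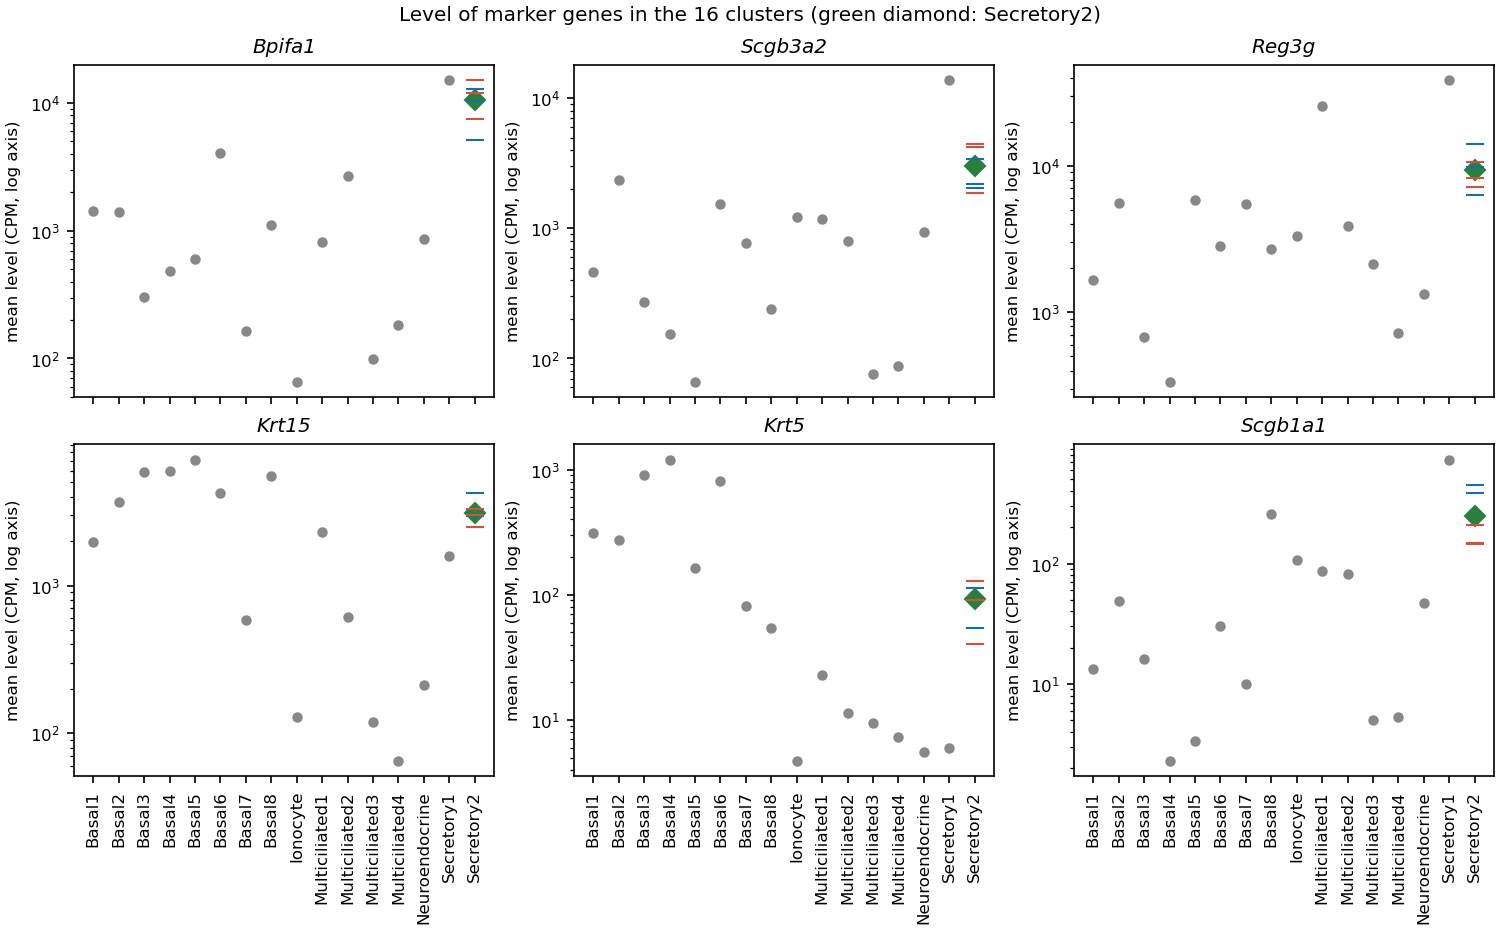
Mean level of 6 marker genes (CPM, log axis) in each of the 16 clusters named on the horizontal axis, over the mice with at least 15 cells of the cluster (ionocytes, 1 mouse). The green diamond is the mean of Secretory2 and the short lines are its 6 mice (blue *WT/WT*, red *MIS/MIS*). Secretory2 lies below Secretory1 for *Bpifa1*, *Scgb3a2*, *Reg3g* and *Scgb1a1*, and above it for *Krt15* and *Krt5*.

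In the GENCODE M21 annotation of GRCm38, *Bpifa1* lies on chromosome 2 from 154142880 to 154149219, *Reg3g* on chromosome 6 from 78466269 to 78468872 and *Krt15* on chromosome 11 from 100131758 to 100135928. The 250 bases before the transcription start are shown for 2 markers with an entry in the RefSeq promoter table, *Bpifa1* and *Reg3g*. They are also shown for *Krt5*, the gene most above Secretory1, and for *Lcn2*, a defence gene far below Secretory1. The windows are chr2:154142630-154142879 (plus strand), chr6:78468875-78469124 (minus strand), chr15:101712906-101713155 (minus strand) and chr2:32387740-32387989 (minus strand) of GRCm38.p6, written in the direction of the gene. Capitals mark matches, on either strand, to TATAAA (the TATA box), TGANTCA (the core bound by AP-1), TTGCNNAA (bound by C/EBP factors) and TGTTTAC (bound by forkhead factors).
Bpifa1: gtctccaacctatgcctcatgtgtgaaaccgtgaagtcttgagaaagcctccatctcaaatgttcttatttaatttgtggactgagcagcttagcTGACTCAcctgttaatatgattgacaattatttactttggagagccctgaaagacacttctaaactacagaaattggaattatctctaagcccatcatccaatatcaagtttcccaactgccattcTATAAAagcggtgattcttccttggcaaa
Reg3g: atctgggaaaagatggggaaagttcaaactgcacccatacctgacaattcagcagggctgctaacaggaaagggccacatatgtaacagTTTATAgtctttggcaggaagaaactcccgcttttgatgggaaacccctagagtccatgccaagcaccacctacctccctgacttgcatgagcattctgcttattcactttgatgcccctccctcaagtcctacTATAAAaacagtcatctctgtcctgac
Krt5: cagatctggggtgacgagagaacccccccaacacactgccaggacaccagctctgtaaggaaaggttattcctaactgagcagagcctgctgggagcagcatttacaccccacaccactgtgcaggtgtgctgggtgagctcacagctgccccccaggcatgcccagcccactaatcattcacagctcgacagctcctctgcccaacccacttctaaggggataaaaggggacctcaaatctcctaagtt
Lcn2: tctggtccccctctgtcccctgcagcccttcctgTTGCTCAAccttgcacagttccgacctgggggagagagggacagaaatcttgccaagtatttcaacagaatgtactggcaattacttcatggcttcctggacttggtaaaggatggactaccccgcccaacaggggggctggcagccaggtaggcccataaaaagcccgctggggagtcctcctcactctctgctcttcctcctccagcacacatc
A TATA box match lies 29 bases before the start of *Bpifa1* and 27 bases before that of *Reg3g*. These 4 motifs are found in 12.97%, 6.87%, 9.55% and 3.09% of 27025 promoter windows of the same length. Among the 10 genes most above Secretory1 (9 with a listed promoter), they are found in 1, 0, 2 and 2 windows, and among the 10 most below it (6 with a listed promoter) in 1, 1, 2 and 0. A match describes the letters in the window and no binding was measured.

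Cell by cell, the markers of Secretory2 were broad rather than uniform. After each cell had been thinned to 5000 UMIs, at least 1 *Krt15* UMI was found in 88.7% ± 6.88 of Secretory2 cells (SD over 6 mice), 79.8% of Secretory1 cells and 98.8% of Basal2 cells. In cell types that should lack it, a UMI was found in 21.9% of Multiciliated3 cells (median 26360 UMIs before thinning) and 26.6% of neuroendocrine cells (median 10351 UMIs). The median number of *Krt15* UMIs per thinned Secretory2 cell was 9 to 21 by mouse, against 3 to 11 in Secretory1 and 14 to 23 in Basal2. Of the Secretory2 cells, 71.2% ± 3.86 (range 67.5% to 77.3%) had more *Krt15* than the median Secretory1 cell of their mouse. *Scgb3a2* gave the reverse picture. It was found in 61.4% ± 5.90 of Secretory2 cells, 94.7% of Secretory1 cells and 57.7% of Basal2 cells, beside 20.5% of Multiciliated3 and 36.0% of neuroendocrine cells. Without thinning these shares were 88.3%, 98.8%, 82.8%, 66.9% and 57.4%. The detection of *Scgb3a2* in Secretory2 was close to that in Basal2, whereas *Bpifa1* was found in 75.1% of Secretory2 and 39.1% of Basal2 thinned cells.

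*Krt15* and *Scgb3a2* were found together in 52.0% ± 5.42 of thinned Secretory2 cells. The same pair was found in 75.2% of Secretory1 cells and 56.8% of Basal2 cells, and in 5.26% of Multiciliated3 cells. *Krt5*, the keratin of basal cells, was found with *Scgb3a2* in 9.63% ± 3.06 of Secretory2 cells, 1.90% of Secretory1 cells, 18.8% of Basal2 cells and 0.42% of Multiciliated3 cells. Across Secretory2 cells of a mouse, *Krt15* tended to be lower where *Scgb3a2* was higher (Pearson r of log thinned UMIs from -0.44 to -0.20 in the 6 mice) and where *Reg3g* was higher (r from -0.52 to -0.38). *Bpifa1* and *Scgb3a2* went together (r from 0.43 to 0.67). These correlations are over cells of one library that share its depth and its free RNA, and the fixed number of UMIs per cell ties genes to each other.

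**Figure D2:**
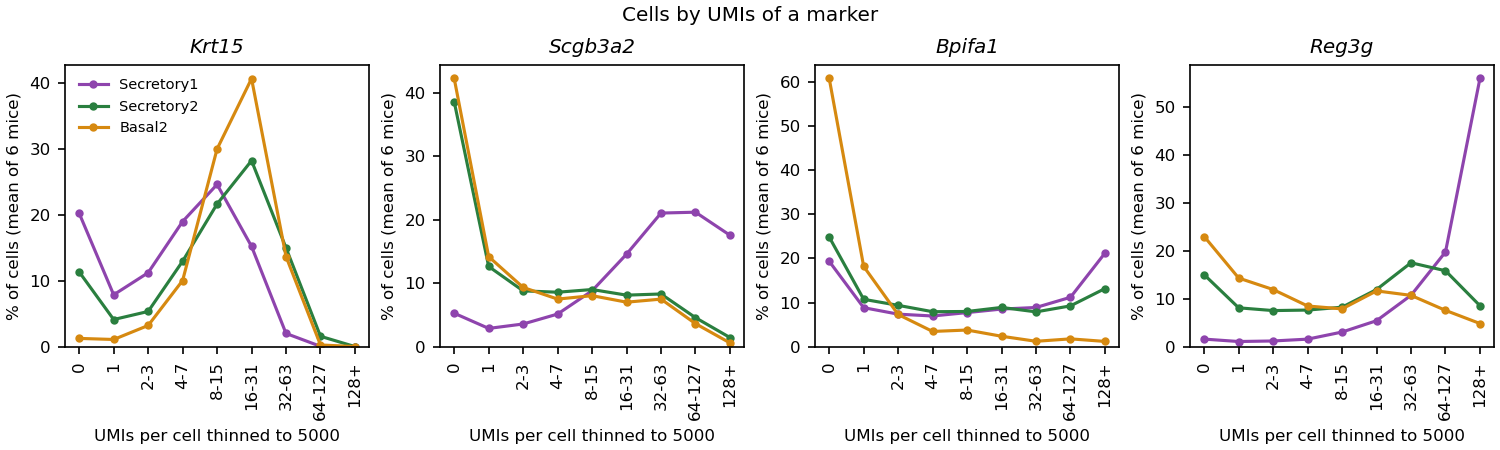
Percent of cells (vertical axis, mean of 6 mice) by the number of UMIs of a marker in a cell thinned to 5000 UMIs (horizontal axis, in bins), for Secretory1, Secretory2 and Basal2. For *Krt15*, Secretory2 has its peak at 16 to 31 UMIs like Basal2, with more cells at 0. For *Scgb3a2* its shares are close to those of Basal2, and for *Bpifa1* close to those of Secretory1 up to 63 UMIs.

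Genes were compared between Secretory2 and Secretory1 within each mouse for 9359 genes with a mean of at least 5 CPM over both clusters. Secretory2 was higher in 6 of 6 mice for 4442 genes (47.5%) and lower for 1401 (15%). The median gene was 0.15 higher on the log2 scale, and with each mouse centred on its median 2311 genes were higher and 2469 lower. Of the called genes, 76.0% were higher without the centring and 48.3% with it, so the direction of small differences depended on the scaling. Differences of 2-fold or more in all mice were few, at 109 genes higher (1.16%) and 168 lower (1.80%).

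Of the 10 genes most above Secretory1, 9 had their highest level in yet another cluster. *Krt5* was at 54.1, 129 and 113 CPM in Secretory2 cells of the *WT/WT* mice and at 129, 40.8 and 91.3 CPM in those of the *MIS/MIS* mice. In Secretory1 cells it was at 2.26 to 10.95 CPM, a log2 difference of 3.77 ± 0.68 (SD, n = 6). Its level in Secretory2 was still below that of 6 basal clusters, which reached 1202 CPM in Basal4. *Dapl1*, whose product is known from differentiating epithelia, was 2.53 ± 0.38 higher on the log2 scale and was highest in Basal3 (311 CPM against 53.2 CPM in Secretory2). *Upk3bl* (2.42 ± 0.47), *S100g*, a calcium-binding protein (2.12 ± 0.23), and *Igfbp3*, which binds insulin-like growth factors (2.07 ± 0.38), came next. They were followed by *Id4*, an inhibitor of helix-loop-helix factors (1.60 ± 0.25), *Pcolce*, an enhancer of procollagen processing (1.58 ± 0.18), *Glul*, glutamine synthetase (1.43 ± 0.26), *Ttc36* (1.41 ± 0.31) and *Capg*, an actin-capping protein (1.39 ± 0.29). Of these genes, *Ttc36* alone had its highest level in Secretory2.

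The 10 genes most below Secretory1 encode secreted proteins, enzymes and others, and the share of such proteins among all genes compared was not determined. *Spink1*, a secreted protease inhibitor, was at 0.06 to 1.02 CPM in Secretory2 and at 28.3 to 137 CPM in Secretory1 (log2 difference -5.30 ± 0.55, SD, n = 6). *Scgb3a1*, a secretoglobin of mature airway secretory cells, was at 7.19 to 52.2 CPM in Secretory2 and at 163 to 1314 CPM in Secretory1 (-4.69 ± 1.04). The sulfotransferases *Sult1c1* (-4.99 ± 0.57) and *Sult1c2* (-3.02 ± 0.85) and the cytochrome *Cyp2b10* (-2.91 ± 0.50) were low in the same way. *Lcn2*, an iron-sequestering antimicrobial protein, was at 237, 111 and 185 CPM in Secretory2 cells of the *WT/WT* mice and at 166, 413 and 405 CPM in those of the *MIS/MIS* mice. It was at 1198 to 4577 CPM in Secretory1 (-3.54 ± 0.33). The secreted glycoprotein *Lrg1* (-3.49 ± 0.31), the iron carrier *Trf* (-3.40 ± 0.53), the neutrophil chemokine *Cxcl5* (-3.32 ± 0.54) and the invariant chain *Cd74* (-3.06 ± 0.61) completed the 10. All were lower in 6 of 6 mice, which the choice of these genes required.

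**Figure D3:**
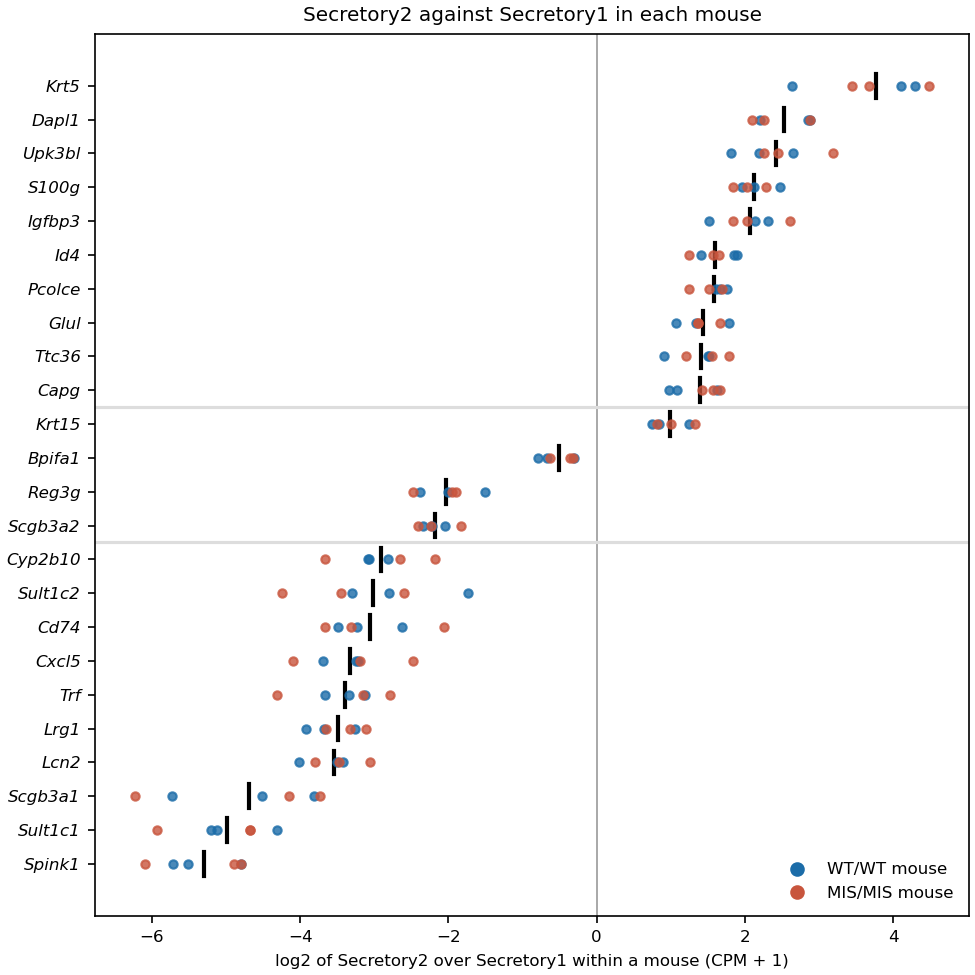
Log2 of the level in Secretory2 over that in Secretory1 of the same mouse (CPM + 1) for the 10 genes most above Secretory1, the 4 markers and the 10 genes most below it. Points are mice and the black tick is the mean of 6. Every point of a gene lies on one side of 0, which the choice of genes required for all but the 4 markers.

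By gene group, secretory, defence and interferon-response genes lay mostly below Secretory1, while the share of basal markers above it was closer to that of all genes. The counts of each list are to be read against all genes compared, of which 47.5% were higher and 15% lower in all 6 mice, or 24.7% and 26.4% with each mouse centred on its median gene. Of 16 basal markers, 11 were abundant enough to compare, of which 7 (63.6%) were higher in all 6 mice and 1 (*Pdpn*) was lower, with a median log2 difference of 0.39 beside 0.15 over all genes. With centring, 5 (45.5%) were higher and 2 lower. Among them, *Trp63*, the master regulator of basal identity, was at 8.02 to 15.75 CPM against 1.12 to 2.99 CPM in Secretory1, and *Aqp3*, a water channel, was at 206 ± 31.1 CPM against 110 CPM. *Krt14*, a keratin of activated basal cells, was at 11.0 ± 4.13 CPM and differed in sign between mice. Of 15 club and secretory markers, 14 were compared, of which 1 (*Tspan8*) was higher in all mice and 10 (71.4%) were lower (median -0.62). *Cyp2f2*, the cytochrome characteristic of club cells, was among the lower genes but nearly level, at 8356 ± 410 CPM against 9394 CPM, and *Wfdc2*, a secreted protease inhibitor, was at 9999.8 ± 769 CPM against 8736 CPM, higher in 5 of 6 mice. Of the 22 antimicrobial and defence genes, 15 were compared, of which 12 (80% of those compared) were lower in all mice, 8 of them by 2-fold or more, and 1 was higher (median -1.09). The higher gene was *Defb1*, a beta-defensin, at 20.6 ± 3.82 CPM against 2.72 CPM. *Lyz2*, lysozyme, was at 317 ± 178 CPM against 2040 CPM. Centring changed neither count in the club or the antimicrobial list.

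Of 10 interferon-response genes, 9 were compared and 8 (88.9%, beside 15% of all genes) were lower in all mice (median -0.99), among them *Isg15* (16.1 ± 6.48 CPM against 71.0 CPM) and *Irf7* (14.4 ± 5.95 CPM against 37.6 CPM). Of 20 xenobiotic enzymes, 19 were compared, of which 9 (47.4%) were lower and 3 (15.8%) higher in all mice (median -0.20). *Cyp2a5* was at 126 ± 29.7 CPM against 645 CPM, whereas the glutathione transferase *Gsta4* was at 2301 ± 283 CPM against 1789 CPM. Of 16 ion and water transport genes, 10 were compared, of which 3 (30%) were higher and 4 (40%) lower. *Scnn1a*, a subunit of the epithelial sodium channel, was highest in Secretory2 of all clusters (244 ± 39.6 CPM). Its ratio to the next cluster was smaller than that of each of the 10 genes ranked by this ratio further below. *Ano1*, a calcium-activated chloride channel, was at 8.88 ± 2.86 CPM against 48.2 CPM. Of 12 genes of the Notch pathway, the pathway that directs basal progeny toward the secretory fate, 8 were compared, of which 3 were higher and 0 lower (median 0.27). This share of 37.5% was below the 47.5% of all genes that were higher. The 3 were *Jag2* (9.79 ± 2.59 CPM against 1.82 CPM), *Notch1* and *Notch3*. With centring these 3 stayed higher and 2 other genes, *Notch2* and *Hey1*, were lower.

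Other keratins differed in direction. *Krt7* was 1.06 ± 0.20 higher on the log2 scale, *Krt8* (-0.32 ± 0.13) and *Krt18* (-0.63 ± 0.21) were lower in all mice, and *Krt19* was at 2058 ± 118 CPM against 2065 CPM, lower in all mice after centring. Of 16 transcription factors of secretory cells, 12 were compared, of which 4 (33.3%) were higher and 1 (8.33%; *Xbp1*, a regulator of the secretory pathway) was lower in all mice, both shares under those of all genes, with a median of 0.01. The higher ones were *Nkx2-1*, *Grhl2*, *Cebpa* and *Cebpd*, of which the first pair stayed higher with centring, when 6 were lower. Of 12 squamous and hillock genes, 9 were compared, of which 2 (22.2%) were higher and 3 (33.3%) lower, with a median of -0.42. Of 10 dissociation and immediate early genes, 1 was higher and 3 (30%) lower, among them *Jun*, at 198 ± 56.2 CPM against 504 CPM. Of 12 goblet and mucous genes, 9 were in the table and 6 of these were under 1 CPM in Secretory2, including *Muc5ac* and *Spdef*. The 9 summed to 310 CPM, against 438 CPM in Secretory1. *Gp2*, *Foxq1* and *Agr2* were compared, of which 2 (66.7%, beside 15% of all genes) were lower in all mice (median -0.55). With centring all 3 were lower, beside 26.4% of all genes.

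Markers of other cell types were near 0 in Secretory2 with few exceptions. The summed level was 0.55 CPM for 7 neuroendocrine markers, 4.40 CPM for 6 ionocyte markers and 2.25 CPM for the 6 of 7 fibroblast and endothelial markers in the table. For 6 of 7 leukocyte markers it was 45.6 CPM, of which *Cd68*, a lysosomal protein that is not restricted to leukocytes, made up 44.8 CPM. *Cd68* was highest in Secretory2 of all clusters, before Basal5 at 28.2 CPM, and *Ptprc*, which all leukocytes express, was at 0.03 CPM. For 5 of 7 tuft markers it was 43.1 CPM, of which *Dclk1* made up 41.8 CPM. The 15 multiciliated markers summed to 38.3 to 59.9 CPM for *WT/WT* and 54.4 to 85.2 CPM for *MIS/MIS* mice. *Foxj1*, their key transcription factor, was found in 1.01% of thinned Secretory2 cells and in 77.1% of Multiciliated3 cells. Cycling was rare, with *Mki67* in 0.72% and *Top2a* in 1.10% of thinned Secretory2 cells against 48.9% and 52.5% in Basal6. Of 7 MHC class II genes, 2 were compared, of which *Cd74* was lower in all mice.

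Among genes at 50 CPM or more in Secretory2, none was highest there by a wide margin. The 10 with the highest ratio to the next cluster were *Ttc36*, *Spr*, *Il17re*, *Resf1*, *Cept1*, *Parva*, *Thrb*, *Dram2*, *Cebpd* and *Sh3bgrl*. *Ttc36* was at 200, 279 and 143 CPM in the *WT/WT* mice and at 225, 138 and 234 CPM in the *MIS/MIS* mice. The next cluster was Multiciliated1 at 140 CPM (log2 ratio of means 0.53), which exceeded the lowest Secretory2 mouse, and Basal8 followed at 132 CPM. *Spr*, sepiapterin reductase, was at 102 ± 5.73 CPM against 76.6 CPM in Basal2, and *Il17re*, a receptor subunit for interleukin 17C, was at 94.4 ± 5.68 CPM against 73.4 CPM in Basal8. *Thrb*, a thyroid hormone receptor, was at 57.4 to 66.4 CPM in the 6 mice. The tenth gene differed from its next cluster by a log2 ratio of 0.25.

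Over all 20483 genes, the profile of Secretory2 was most like Secretory1 (Pearson r of log2 mean levels 0.990), Basal2 (0.990) and Basal8 (0.989). These correlations are over genes that share the same libraries, and their order was not tested. Secretory2 was then placed against Secretory1 and a basal cluster, on genes that differed 2-fold or more between these and reached 50 CPM in the higher. Against Basal2 it was placed between for 133 of 169 genes (78.7%). Its median position was 0.51 on a scale from 0 at one cluster to 1 at the other. It was above both for 14 genes and below both for 22. Against Basal8 it was between for 122 of 160 genes (76.25%). Against Basal3, a cluster richer in *Krt5* and less like Secretory2 (r 0.981), it was between for 496 of 537 genes (92.4%). These genes were chosen for a gap between the end clusters, and no other cluster was placed in the same way for reference. The shares therefore do not set Secretory2 apart from other clusters. The part of doublets in these positions was not tested.

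The finer clustering deposited by the authors split Secretory2. Finer cluster 2 held 2433 of its 2870 cells (84.8%), and finer cluster 5 held 419 (14.6%), together with 904 Secretory1 and 495 Basal3 cells. The cells of finer cluster 5 came from 5 mice, 15 to 181 per mouse, with 0 of 179 from MT1383, which allows a share of up to 1.68% by counting error alone. In these 5 mice they had more *Areg*, an epidermal growth factor receptor ligand (412 against 40.7 CPM in finer cluster 2), *Fosl1* (113 against 12.4 CPM), *Nr4a2* (285 against 33.3 CPM) and *Atf3* (521 against 118 CPM). The last 3 encode transcription factors that are induced rapidly by stimulation or stress, and the part of cell dissociation was not tested. They had less *Krt5* (16.6 against 111 CPM) and *Dapl1* (20.7 against 60.4 CPM). *Krt15* was at 2981 and 3270 CPM, lower in 3 of 5 mice, and *Scgb3a2* was higher in 5 of 5 mice (3795 against 2679 CPM). The median UMIs per cell were 35611 and 30998.

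The share of Secretory2 cells was compared between genotypes with the mouse as the unit. It was 10.5%, 21.8% and 9.24% of all cells in *WT/WT* mice 1, 2 and 3 and 16.4%, 15.7% and 2.67% in MT1301, MT1306 and MT1383. The genotypes overlapped, at 13.9% ± 6.94 and 11.6% ± 7.72 (SD, n = 3 each, two-sided exact permutation p = 0.7). With 3 mice against 3, such a test cannot give a p below 0.1. Without MT1383 the mean share was higher in *MIS/MIS* mice by 2.17 percentage points, and without *WT/WT* mouse 2 by 1.71. Of the cells of both secretory clusters, Secretory2 made up 44.6%, 45.1% and 32.8% in the *WT/WT* mice and 42.6%, 52.8% and 11.2% in the *MIS/MIS* mice (exact permutation p = 0.8). MT1383 was low on both measures, and its Secretory2 cells were also the shallowest. A share is relative, and MT1383 had 1295 Basal2 cells where the other mice had 105 to 295.

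Depth overlapped between the genotypes. Median UMIs per Secretory2 cell were 36130 ± 7975 for *WT/WT* and 31276 ± 10559 for *MIS/MIS* mice (exact permutation p = 0.6), and median genes per cell were 5724 ± 600 and 5389 ± 899 (exact permutation p = 0.6). The median mitochondrial percentage was 12.8, 12.5 and 12.5 in the *WT/WT* mice and 12.1, 12.3 and 11.8 in the *MIS/MIS* mice. These did not overlap, at 12.6% ± 0.15 and 12.1% ± 0.27, which gave the smallest p the design allows (exact permutation p = 0.1).

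**Figure D4:**
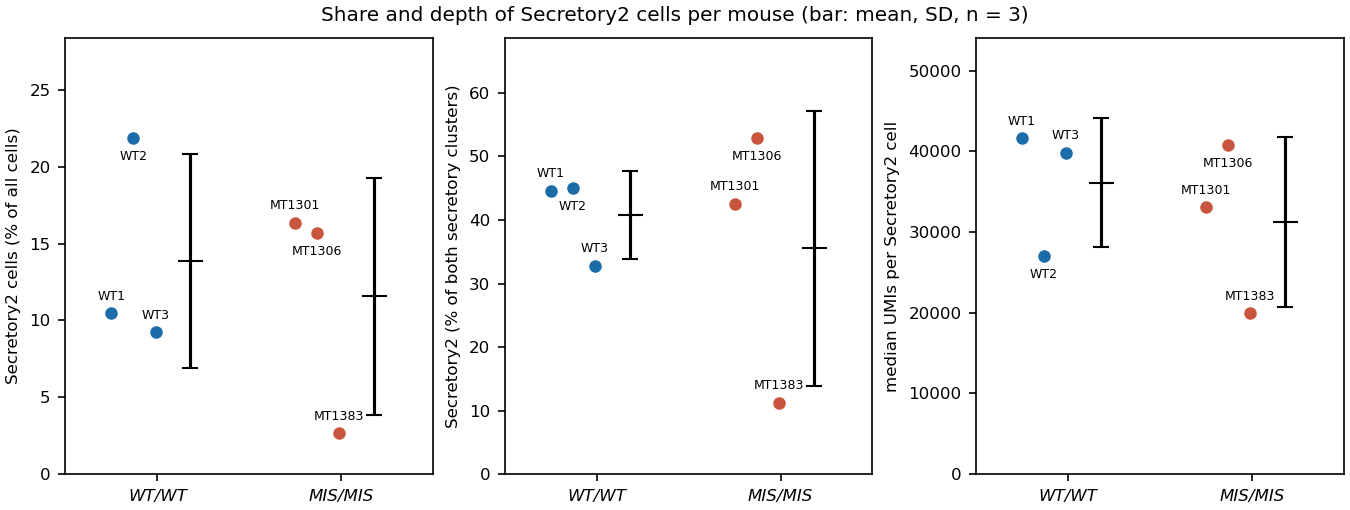
Secretory2 cells as a percentage of all cells and of both secretory clusters, and the median UMIs per Secretory2 cell, for each of 3 *WT/WT* (blue) and 3 *MIS/MIS* (red) mice, with mean and SD. The genotypes overlap in each panel, and MT1383 is the lowest mouse in all 3.

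The genotypes were then compared gene by gene in the UMI sums of Secretory2 cells with limma's voom test, over 12369 genes. At an adjusted p under 0.05, 1 gene was called (0.00808%), and 364 (2.94%) had an unadjusted p under 0.05. The gene was *Wdfy1*, an endosomal adaptor of Toll-like receptor signaling, on chromosome 1 from 79702262 to 79776143. It was at 26.0, 25.9 and 21.7 CPM in Secretory2 cells of the *WT/WT* mice and at 68.6, 76.8 and 78.5 CPM in those of the *MIS/MIS* mice, and the groups were far apart. The fitted log2 difference was 1.57 (SE 0.091, adjusted p = 0.00107), and it was 1.51 to 1.64 when each mouse was left out in turn. In Secretory1 cells of the same mice, *Wdfy1* was at 18.5 to 24.8 CPM and at 64.4 to 81.2 CPM. *Dnaaf5* itself, which carries a missense change and not a deletion, was at 7.31, 5.97 and 7.50 CPM in *WT/WT* and at 7.94, 6.74 and 6.12 CPM in the 3 *MIS/MIS* mice (log2 difference 0.13, SE 0.15, adjusted p = 1.00). Its level thus does not check the genotype. Its sign turned under 4 alternatives, and it was at 68.4 CPM in Multiciliated3 cells.

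Groups of mice without overlap were found for 549 genes higher (4.44%) and 469 lower (3.79%) in *MIS/MIS* mice. Among the lower genes, those with the lowest p were *Rims2*, *Atp13a5*, *Clca1*, *Wdr45* and *Nectin3*, none of which passed the adjusted threshold. *Rims2*, a scaffold of regulated exocytosis, was at 6.67, 6.10 and 7.97 CPM in the *WT/WT* mice and at 0.93, 0.80 and 2.04 CPM in the *MIS/MIS* mice (log2 difference -2.70, SE 0.29, adjusted p = 0.0774). It passed when no filter on low counts was used (adjusted p = 0.0284). *Clca1*, a secreted protein of mucous cells, was at 28.8, 22.7 and 18.2 CPM and at 12.2, 12.4 and 17.3 CPM (log2 difference -0.85, SE 0.17, adjusted p = 1.00). *Nectin3*, a cell adhesion molecule, was at 68.1 ± 5.69 and 48.4 ± 3.52 CPM, and *Wdr45*, an autophagy protein, at 52.9 ± 3.14 and 39.7 ± 2.44 CPM. *Atp13a5* was at 9.01 ± 1.32 and 4.72 ± 0.39 CPM.

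**Figure D5:**
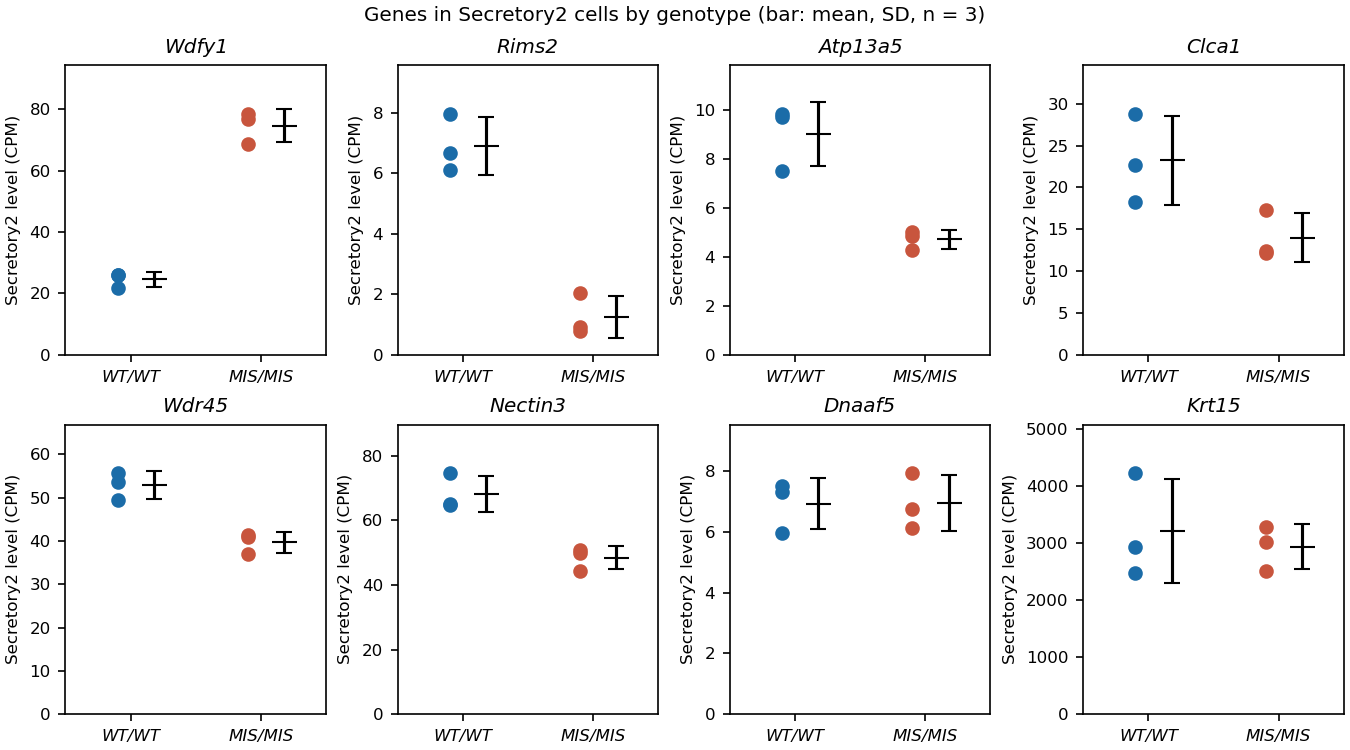
Level in Secretory2 cells (CPM) of each *WT/WT* (blue) and *MIS/MIS* (red) mouse, with mean and SD, for *Wdfy1*, the 5 lower genes with the lowest p, *Dnaaf5* and *Krt15*. Only *Wdfy1* passed the adjusted threshold, and *Dnaaf5* and *Krt15* overlap.

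None of the 4 markers of Secretory2 passed the test between genotypes. *Krt15* was at 3215 ± 910 CPM for *WT/WT* and 2938 ± 396 CPM for *MIS/MIS* mice (log2 difference -0.11, SE 0.19), *Bpifa1* at 9417 ± 3914 and 11523 ± 3751 CPM (0.32, SE 0.34), *Scgb3a2* at 2553 ± 754 and 3518 ± 1435 CPM (0.40, SE 0.32) and *Reg3g* at 10081 ± 3931 and 8665 ± 1752 CPM (-0.17, SE 0.26). With each mouse left out in turn, the difference of *Scgb3a2* was 0.17 (without MT1306) to 0.79 (without MT1301, unadjusted p = 0.00473 and adjusted p = 0.744 by limma). Leaving out 1 mouse turned the sign for *Krt15* (without *WT/WT* mouse 2 or MT1383), *Bpifa1* (without *WT/WT* mouse 2) and *Reg3g* (without *WT/WT* mouse 1). The shares of thinned cells with a UMI of the markers overlapped as well. For *Krt15* the share was 82.6%, 96.4% and 93.8% in the *WT/WT* and 92.6%, 88.1% and 78.8% in the *MIS/MIS* mice (exact permutation p = 0.5), and for *Scgb3a2* it was 58.2% ± 6.12 and 64.5% ± 4.47 (exact permutation p = 0.3).

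Beyond the markers, no member of the gene lists was past the adjusted threshold with all 6 mice. Without *WT/WT* mouse 1, *Pigr*, the receptor that carries immunoglobulins across the epithelium and a member of the club and antimicrobial lists, passed it (with all mice, log2 difference 1.02, SE 0.42, adjusted p = 1.00). Over all genes tested, 49.4% had a positive difference. Of 16 tested antimicrobial and defence genes, 13 had a positive difference and 3 a p under 0.05 without adjustment, beside 2.94% of all genes. Among them *C3*, a complement component, was at 165, 133 and 124 CPM in the *WT/WT* mice and at 188, 184 and 166 CPM in the *MIS/MIS* mice (log2 difference 0.36, SE 0.11, adjusted p = 1.00). Of 15 basal markers 7 were positive, and of 14 club and secretory markers 8, both near the share of all genes. Of 13 multiciliated markers 10 were positive, with a median log2 difference of 0.17 and none with a p under 0.05, beside a median of -0.0013 over all genes tested. Of these 13, 2 (15.4%) were higher in *MIS/MIS* mice without overlap, beside 4.44% of all genes. The part of free RNA from multiciliated cells was not tested. Of 7 tested genes of the dynein assembly list, 6 were positive, 1 (14.3%) was higher without overlap and none had a p under 0.05. *Ly6d* (log2 difference -1.54, SE 0.43) and *Anxa8* (0.34, SE 0.064) were the 2 of 11 tested squamous genes that did not overlap between genotypes, 1 lower and 1 higher in *MIS/MIS* mice (9.09% each, beside 3.79% and 4.44% of all genes), with adjusted p = 1.00 for each.

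Whether the genotype acted differently in Secretory2 and Secretory1 was tested with limma on the difference between the clusters within each mouse, over 12274 genes. At an adjusted p under 0.05, 0 genes (0.00%) were called, while 366 (2.98%) had an unadjusted p under 0.05. With a smaller prior count 0 genes were called too, and without MT1301 there was 1, *Slc16a11*. For *Wdfy1* the effect was 1.59 in Secretory2 and 1.71 in Secretory1 on the log2 scale, a difference of -0.12 (SE 0.091, adjusted p = 1.00). For *Krt15* the difference of the effects was 0.11 (SE 0.14), and the gap between the clusters described above was found in both genotypes. *Slc16a11*, a monocarboxylate transporter family member, had the lowest p (difference -0.64, SE 0.087, adjusted p = 0.442).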

How the data were processed

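Droplet libraries (10x Genomics 3' chemistry) of 6 mice were used. Per the labels, the authors aligned reads to mm10 with Cell Ranger (7.1.0 in the submitters' notes, another version in the methods) and used Seurat to filter and cluster. They deposited raw UMI counts of 20483 genes and a table of cells with cluster names, as another kind of value than plain tab-separated counts since the separator was mistyped. For this reason count models were not used. All values were whole, and each cell's total matched its entry in the table of cells.

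UMIs were summed per mouse and cluster (3917215 to 30292709 per mouse in Secretory2, on the genes tested, so that MT1383 gives the least precise values). Genotypes were compared with limma 3.58.1 in R 4.3.3 (voom, TMM factors, Benjamini-Hochberg adjustment), on genes with at least 15 UMIs in all and the equivalent of 10 UMIs at median depth for 3 or more mice. The difference of the genotype effect between clusters was fitted with limma on log2 CPM (prior count 2). Exact permutation tests were two-sided and used for shares and depth. Clusters were compared on log2(CPM + 1), which understates the change of low genes, and intervals or limits cover counting error only. Genes with near-identical copies or overlapping neighbours are uncertain. Python 3.11.15 was used for the other steps, and the limma fits were tested on simulated data.

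The cluster, its markers and the gene lists were chosen with earlier results of these data known. Named genes were the 4 markers, up to 4 per list by level or difference, the 10 most above and the 10 most below Secretory1 in all mice at 50 CPM or more, the 10 highest relative to the next cluster, and per direction of the genotype effect those past the threshold or else the 5 with the lowest p without overlap. Other genes named as single exceptions, from centring or from the finer clusters, were chosen after their values were seen. Mutant libraries bear animal numbers found in no sample title and served as replicates of their genotype without a number. Promoter sequences are from RefSeq (GRCm38.p6), which listed 15 of the 20 genes looked up for motifs. Alternatives were upper-quartile normalization, other filters on low counts, limma-trend, sample weights, another prior count, each mouse left out, thinned cells, cells with at most 7500 genes and the mean log-normalized expression. Fits without shared barcodes or within the largest finer cluster, and centring on the median gene, were chosen after seeing the data.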

Additional observations from a re-analysis of the deposited data

How the results depend on the processing

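*Wdfy1* stayed past the adjusted threshold in every fit run. The count of genes past it was 1 to 5 with each mouse left out (5 without *WT/WT* mouse 1, when *Casp1*, *Hpgd*, *Hpgds* and *Pigr* were added) and 2 without a filter on low counts. The count at an unadjusted p under 0.05 was 289 to 777 with each mouse left out (777 without MT1301) and 561 with sample weights. For the difference of effects between clusters it was 0 to 1 (1 without MT1301). Differences turned sign with each mouse left out as follows. The share of all cells was -4.68 to 2.17 percentage points and that of both secretory clusters -13.9 to 6.86, median UMIs -9622 to 820 and median genes -727 to 156, each positive without MT1383 and the first also without *WT/WT* mouse 2. The share of cells with *Reg3g* was -10.4 to 0.81 percentage points (positive without MT1301). On the log2 scale *Bpifa1* was -0.049 to 0.59, *Krt15* -0.29 to 0.10, *Reg3g* -0.46 to 0.10 and *Dnaaf5* -0.026 to 0.20. *Dnaaf5* was also -0.38 with thinned cells, -0.0067 with limma-trend and -0.0022 as mean log-normalized expression. Genes higher in Secretory2 than in Secretory1 in all mice were 2530 with thinned cells and 2311 with centring, when 2469 were lower. The part of the smaller number of UMIs in thinned cells was not tested. Of the values that answer a comparison, 196 of the alternatives counted as unchanged, 9 moved and 6 changed sign, and the cause was not tested here. Counts of genes and log2 differences between clusters were held to a limit on size. Shares and depth were judged only by sign and by an exact permutation p under 0.05, which cannot occur here, so their size could change freely. No paired analysis was possible because the labels give no litter or culture pairs of *WT/WT* and *MIS/MIS* mice. With 3 mice per genotype no exact test could give a p below 0.1.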
